A study of Homo sapiens with 8 samples.

Results

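The serpins are a family of proteins that share one fold and act mostly as protease inhibitors. They were taken as every protein-coding gene whose symbol is SERPIN followed by a clade letter from A to I and a number. The rule gave 34 genes among 61533 gene identifiers in the count tables. Of these, 10 SERPINB genes lie side by side on chromosome 18, between 63476958 and 64019779 (GRCh38), and 24 lie elsewhere: 3 SERPINB genes on chromosome 6 and 21 genes of the other clades. SERPINA2 matched the symbol pattern but is annotated as a pseudogene and was left out.

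RNA was measured in 2 established human squamous carcinoma lines. A431 is labelled an epidermoid carcinoma line, and CAL27 is the other squamous line of the study. Each line had 2 libraries of cells given DMSO, the solvent control, and 2 libraries of cells given NEDD8i for 16 h, 8 libraries in all. NEDD8 is a ubiquitin-like protein that is attached to cullins, the scaffolds of a large class of ubiquitin ligases, and the question of the comparison is how its inhibition changes RNA levels in these cells. The labels name neither the compound nor its dose. Both lines are cancer cells grown alone, without stroma or leukocytes, and each stands for a single tumour. Whether replicates were grown apart is not stated, so the spread behind each p-value may be technical.

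A serpin folds into a strained form with a loop exposed at its surface. When a target protease cuts the loop, the loop folds into the body of the serpin and drags the protease with it, which leaves both locked in an inactive complex. Some members have lost this activity: SERPINH1 is a chaperone of collagen, and SERPINB5 (maspin) does not inhibit proteases in this way. Clade B serpins lack a classical secretion signal and are found largely inside cells, where they guard against leaked lysosomal or granule proteases, and many of them are made by the keratinocytes of stratified epithelium. The members of other clades are mostly secreted and act in plasma and matrix on clotting, fibrinolysis and tissue proteases.

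The promoters of the members on which the results turn are shown first. Each is 300 bases, from 250 before to 50 after the start site, from RefSeq on GRCh38.p14, and is written 5′ to 3′ along the gene's own strand. Capitals mark matches to motifs searched for on both strands: TGANTCA, the AP-1 motif, GAANNTTC, a pair of heat shock units, and TATAA, the TATA motif. None of the capitals in these 5 promoters belongs to more than 1 motif. SERPINB2 (chr18:63887455-63887754, plus strand), SERPINB7 (chr18:63752807-63753106, plus strand), SERPINB5 (chr18:63476708-63477007, plus strand) and SERPINB13 (chr18:63587093-63587392, plus strand) belong to the chromosome 18 cluster. SERPINH1 (chr11:75562003-75562302, plus strand) lies outside the cluster and fell in both lines.
SERPINB2: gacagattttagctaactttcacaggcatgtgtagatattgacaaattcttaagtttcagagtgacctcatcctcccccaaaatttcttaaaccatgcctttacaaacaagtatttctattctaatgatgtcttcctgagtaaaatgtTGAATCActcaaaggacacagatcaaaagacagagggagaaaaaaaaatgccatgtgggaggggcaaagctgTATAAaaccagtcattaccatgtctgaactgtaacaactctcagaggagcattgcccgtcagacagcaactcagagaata
SERPINB7: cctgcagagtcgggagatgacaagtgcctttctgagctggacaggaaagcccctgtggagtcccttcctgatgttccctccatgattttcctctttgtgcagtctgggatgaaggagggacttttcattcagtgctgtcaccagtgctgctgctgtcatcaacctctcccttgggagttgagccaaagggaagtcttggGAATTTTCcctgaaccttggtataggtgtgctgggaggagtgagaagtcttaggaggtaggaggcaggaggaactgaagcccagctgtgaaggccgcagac
SERPINB5: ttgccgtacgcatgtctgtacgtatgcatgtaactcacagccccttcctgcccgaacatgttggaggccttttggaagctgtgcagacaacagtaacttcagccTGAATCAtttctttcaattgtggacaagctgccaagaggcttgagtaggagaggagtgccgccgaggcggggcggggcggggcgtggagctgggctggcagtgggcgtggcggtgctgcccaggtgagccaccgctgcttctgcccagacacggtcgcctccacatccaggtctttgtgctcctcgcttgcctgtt
SERPINB13: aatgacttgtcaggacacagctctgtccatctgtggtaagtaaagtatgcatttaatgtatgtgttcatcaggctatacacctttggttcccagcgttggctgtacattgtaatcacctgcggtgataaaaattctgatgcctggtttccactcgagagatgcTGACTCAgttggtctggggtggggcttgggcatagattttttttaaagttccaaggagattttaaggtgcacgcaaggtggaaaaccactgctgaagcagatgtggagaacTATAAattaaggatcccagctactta
SERPINH1: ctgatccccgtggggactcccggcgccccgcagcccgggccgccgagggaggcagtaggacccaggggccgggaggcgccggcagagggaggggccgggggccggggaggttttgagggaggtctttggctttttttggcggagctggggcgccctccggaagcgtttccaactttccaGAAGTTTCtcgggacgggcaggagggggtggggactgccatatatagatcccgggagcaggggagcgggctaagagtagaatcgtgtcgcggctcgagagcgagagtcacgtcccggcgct

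SERPINB2 held the AP-1 letters 102 bases before its start site and the TATA letters 30 bases before it. The AP-1 letters stood 146 bases before the start of SERPINB5 and 87 before that of SERPINB13. The heat shock letters stood 51 bases before the start of SERPINB7 and 71 before that of SERPINH1. RefSeq promoters were found for 27 of the 34 serpins. The AP-1 motif matched 5 of 8 promoters of the chromosome 18 cluster (SERPINB5, SERPINB12, SERPINB13, SERPINB2 and SERPINB8) and 2 of 19 promoters of the other serpins, against 7.71% of all 35116 promoters of the same length. The heat shock motif matched 1 of 8 and 3 of 19, against 6.77% of all promoters. TATAA matched 4 of 8 and 5 of 19, against 20.4%. In the cluster, the TATAA letters of SERPINB12 and SERPINB13 lay after the start site and those of SERPINB8 140 bases before it. TGACNNNGC, the antioxidant response motif, matched 0 of 8 and 4 of 19, against 13.3%. These are matches of letters and not measured binding sites.

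SERPINB3 (chr18:63661844-63662143, minus strand) and SERPINB4 (chr18:63644207-63644506, minus strand) are a recent duplication, and their promoters are shown because reads of the pair are hard to tell apart. Capitals mark the 4 bases of 300 at which the 2 promoters differ.
SERPINB3: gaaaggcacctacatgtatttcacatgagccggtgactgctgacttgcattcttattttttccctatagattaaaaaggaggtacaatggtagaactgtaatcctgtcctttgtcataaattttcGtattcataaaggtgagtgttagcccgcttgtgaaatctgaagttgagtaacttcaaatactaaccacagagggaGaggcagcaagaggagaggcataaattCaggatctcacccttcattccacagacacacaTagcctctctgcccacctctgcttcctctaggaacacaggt
SERPINB4: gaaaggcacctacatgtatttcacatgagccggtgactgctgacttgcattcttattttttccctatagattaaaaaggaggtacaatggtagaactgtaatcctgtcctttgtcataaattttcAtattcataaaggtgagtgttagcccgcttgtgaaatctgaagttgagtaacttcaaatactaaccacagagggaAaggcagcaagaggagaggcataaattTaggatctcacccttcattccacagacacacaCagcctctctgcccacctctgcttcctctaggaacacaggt
The longest coding transcripts of the pair were 94.2% identical over 1777 aligned bases. They differed at 11 of the last 300 bases, and the longest stretch without a difference was 129 bases. The counting dropped reads that mapped to more than 1 place, so the counts of both genes are uncertain.

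The 8 libraries held 49037868 to 62509817 counts. Replicates correlated across genes with r = 0.981 to 0.986 on the log2 scale. The variance between replicates was 6.26 to 13 times that of sampling noise, and no library was a copy of another. Levels are given as CPM, the counts scaled to a common library total with TMM factors, and 3 counts in a library were 0.0454 to 0.0656 CPM. A gene was called at an adjusted p under 0.05 in edgeR's quasi-likelihood test over 18738 genes, and the standard error (SE) of a log2 change comes from that fit. All 8 squamous keratinocyte markers were detected, with 10221 to 18787 CPM summed per library. ALB, APOA1 and TTR of the hepatocyte, the main source of plasma serpins, were at 0 counts throughout. Summed over all 5 hepatocyte markers, the level was at most 0.111 CPM in a library, under DMSO in CAL27. In bulk RNA, fewer cells that express a gene and less RNA per cell cannot be told apart.

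Of the 34 serpins, 22 had enough counts to be tested, 9 on chromosome 18 and 13 elsewhere. NEDD8i changed 14 of the 22 in A431, where 43.6% of all genes tested were called, and 14 of the 22 in CAL27, where 49.6% of all genes were called. In A431, 11 serpins rose and 3 fell, and in CAL27, 6 rose and 8 fell. The median log2 change over the tested serpins was 0.64 in A431 and -0.27 in CAL27, and over all genes tested it was -0.01 and -0.04. A gene could pass the low-count filter through the group in which it was high, so these counts describe the tested members only.

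**Figure D1:**
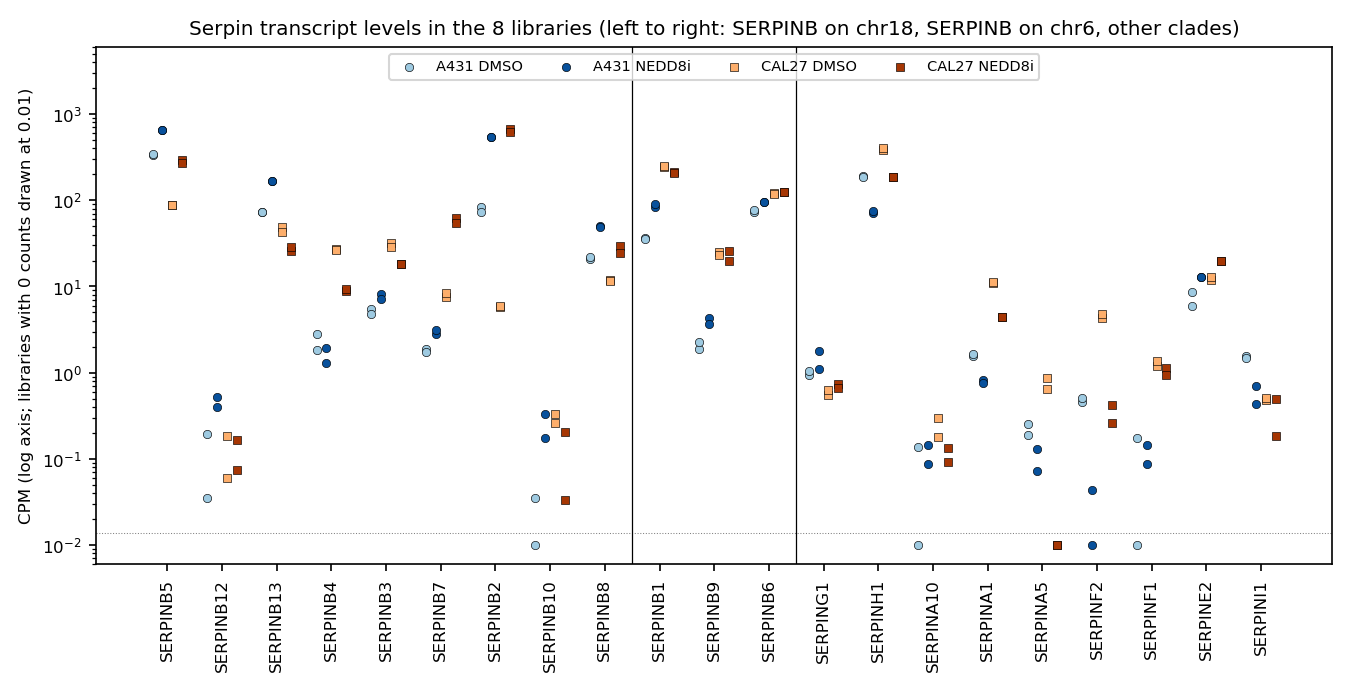
Level of 21 tested serpins in every library, in CPM on a log axis, with 1 point per library, circles for A431, squares for CAL27 and libraries with 0 counts drawn under the dotted line. SERPINB2 moved from 5.73 and 5.96 CPM under DMSO to 675 and 617 CPM under NEDD8i in CAL27, and SERPINH1 was lower under NEDD8i in both lines.

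SERPINB2 (plasminogen activator inhibitor 2, ENSG00000197632.9, chromosome 18, 63887705 to 63903888) rose in both lines. Per kb of exon, a rough scale because the libraries read 3′ ends, it came first among the serpins under NEDD8i in each. By CPM it came first in treated CAL27 only, and in treated A431 SERPINB5 stood higher (mean 655 against 540 CPM). SERPINB2 inhibits urokinase and is made by keratinocytes and monocytes. In A431 the level was 83.6 and 73.9 CPM under DMSO and 540.0 and 539.6 CPM under NEDD8i. In CAL27 the level was 5.73 and 5.96 CPM under DMSO and 675 and 617 CPM under NEDD8i. The DMSO libraries of the lines were far apart and the NEDD8i libraries close together, and treated and control libraries did not overlap in either line. The log2 change was 2.78 ± 0.0565 (SE) in A431, a 6.85-fold rise (edgeR, adjusted p = 6.23e-16), and 6.79 ± 0.0753 in CAL27, a 110-fold rise (edgeR, adjusted p = 1.74e-19). By size of the rise it stood in place 264 of the 4224 genes that rose in A431 and in place 65 of the 4348 that rose in CAL27.

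SERPINB7 (megsin, ENSG00000166396.13, 63753047 to 63805376), whose loss in humans causes a palmoplantar keratoderma, rose in both lines from very different levels. A431 held 1.88 and 1.75 CPM under DMSO and 2.80 and 3.10 CPM under NEDD8i. CAL27 held 7.64 and 8.31 CPM under DMSO and 62.8 and 54.0 CPM under NEDD8i. Both CAL27 groups lay above both A431 groups, and each line's treated libraries lay above its controls. The rise was 1.63-fold in A431 (log2 0.70 ± 0.162, edgeR adjusted p = 0.0017) and 7.31-fold in CAL27 (log2 2.87 ± 0.114, edgeR adjusted p = 1.93e-12).

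SERPINB5 (maspin, ENSG00000206075.14, 63476958 to 63505085) is a marker of epithelial cells that was described as a tumour suppressor of the breast. In A431 it stood at 339 and 340.2 CPM under DMSO and 659.8 and 651 CPM under NEDD8i. In CAL27 it stood at 89.1 and 87.5 CPM under DMSO and 296 and 270.0 CPM under NEDD8i. A431 was the higher line in both conditions, and the treated CAL27 libraries stayed under the A431 controls. The rise was 1.93-fold in A431 (log2 0.95 ± 0.0463, edgeR adjusted p = 3.09e-11) and 3.21-fold in CAL27 (log2 1.68 ± 0.0475, edgeR adjusted p = 1.71e-14).

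SERPINB8 (ENSG00000166401.15, 63970029 to 64019779), an inhibitor of furin, rose in both lines. It held 21.0 and 22.1 CPM under DMSO and 50.9 and 48.4 CPM under NEDD8i in A431. In CAL27 it held 11.9 and 11.5 CPM under DMSO and 29.4 and 24.4 CPM under NEDD8i. A small part of its exons, 3.24% of the bases, lies under exons of other genes. Treated libraries lay above the controls in each line, and the rise was 2.31-fold in A431 (edgeR, adjusted p = 2.17e-08) and 2.31-fold in CAL27 (edgeR, adjusted p = 2.36e-08).

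SERPINB13 (headpin or hurpin, ENSG00000197641.12, 63587300 to 63599198), a keratinocyte inhibitor of lysosomal cathepsins, rose in A431 and fell in CAL27. A431 held 73.4 and 72.2 CPM under DMSO and 168 and 165 CPM under NEDD8i. CAL27 held 48.9 and 43.4 CPM under DMSO and 25.9 and 28.9 CPM under NEDD8i. The groups did not overlap in either line, with the treated libraries above the controls in A431 and under them in CAL27. The log2 change was 1.20 ± 0.0679 in A431, 2.29-fold (edgeR, adjusted p = 2.32e-10), and -0.75 ± 0.0723 in CAL27, 1.68-fold lower (edgeR, adjusted p = 1.17e-07).

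SERPINB3 and SERPINB4 are the squamous cell carcinoma antigens. The product of SERPINB3 (ENSG00000057149.16, 63655197 to 63661893) inhibits cysteine proteases such as cathepsin L, and that of SERPINB4 (ENSG00000206073.11, 63637259 to 63644256) inhibits serine proteases such as cathepsin G. SERPINB3 held 5.53 and 4.73 CPM under DMSO and 8.21 and 7.06 CPM under NEDD8i in A431, and 31.7 and 28.6 CPM under DMSO and 18.4 and 18.5 CPM under NEDD8i in CAL27. SERPINB4 held 2.82 and 1.82 CPM under DMSO and 1.31 and 1.91 CPM under NEDD8i in A431, and 27.5 and 26.8 CPM under DMSO and 8.87 and 9.44 CPM under NEDD8i in CAL27. CAL27 was the higher line for both genes in every library, and the A431 groups overlapped for SERPINB4 alone. SERPINB3 rose 1.48-fold in A431 (log2 0.57 ± 0.136, edgeR adjusted p = 0.00234) and fell in CAL27, where it was 1.63-fold lower (log2 -0.71 ± 0.118, edgeR adjusted p = 7.45e-05). SERPINB4 was not called in A431 (log2 -0.52 ± 0.226, edgeR adjusted p = 0.0737) and fell in CAL27, where it was 2.96-fold lower (log2 -1.57 ± 0.169, edgeR adjusted p = 5.51e-07). Without DMSO replicate 2 of A431, SERPINB4 was called lower in A431 too, at a log2 change of -0.79 (edgeR, adjusted p = 0.00692), and without NEDD8i replicate 2 of A431 at -0.82 (edgeR, adjusted p = 0.0259).

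The other 3 genes of the cluster were rare or silent. SERPINB10 (bomapin), best known from blood-forming cells, had 2 and 0 counts under DMSO and 8 and 18 counts under NEDD8i in A431. That is a ratio of 14.1 in CPM, with a 95% counting interval of 3.53 to 122.5 that covers counting error only, and it was not called (edgeR, adjusted p = 0.0552). In CAL27 the DMSO libraries had 14 and 22 counts and the NEDD8i libraries 11 and 2 (edgeR, adjusted p = 0.401). SERPINB12, an inhibitor of trypsin-like proteases in surface epithelia, had at most 24 counts in a library and was not called in A431 (edgeR, adjusted p = 0.178) or CAL27 (edgeR, adjusted p = 1). SERPINB11 had 0 counts in every library.

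**Figure D2:**
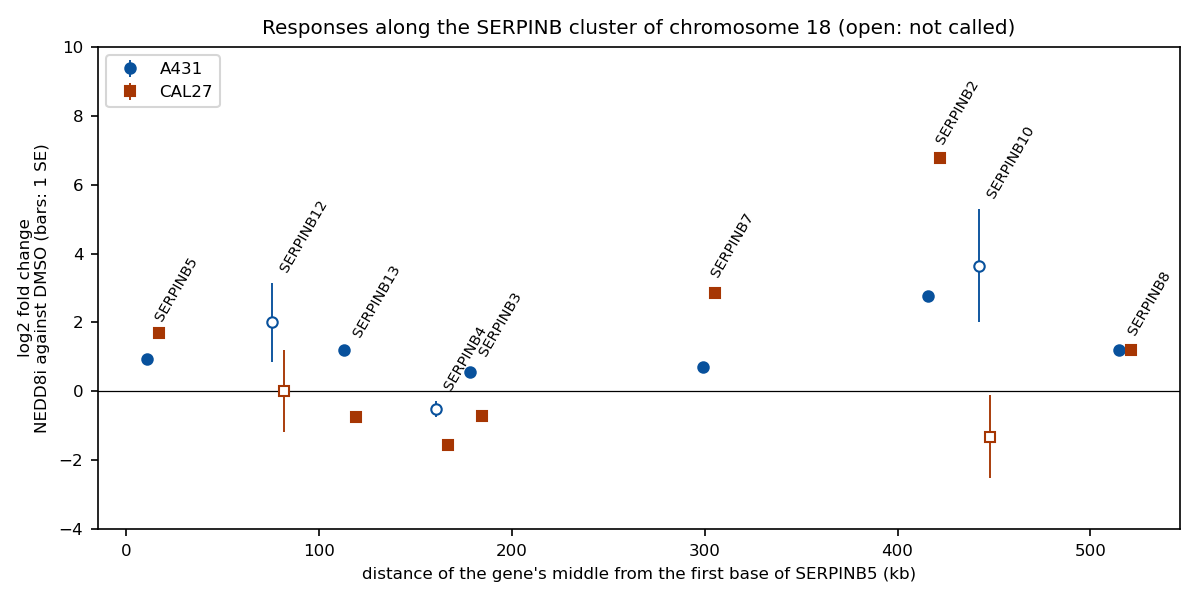
Log2 change under NEDD8i of the 9 tested SERPINB genes of chromosome 18 in A431 (circles) and CAL27 (squares), placed by distance in kb from the first base of SERPINB5, with bars of 1 SE and open marks for genes not called. SERPINB2, SERPINB5, SERPINB7 and SERPINB8 lie above 0 in both lines, and SERPINB13 and SERPINB3 lie above 0 in A431 and under 0 in CAL27.

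Of the 9 tested members, 6 rose and none fell in A431, where 22.5% of all genes rose and 21.1% fell. In CAL27, 4 rose and 3 fell, where 23.2% of all genes rose and 26.4% fell. The 4 that rose in both lines were SERPINB5, SERPINB7, SERPINB2 and SERPINB8. The median log2 change of the 9 genes was 1.20 in A431 and 0.00 in CAL27, with ranges of -0.52 to 3.65 and -1.57 to 6.79. The CAL27 median was the value of SERPINB12 with its few counts, and with the stricter filter of 1 CPM it was 1.21. The top of the A431 range was SERPINB10, which had 2 control counts and was not called. With the filter of 1 CPM the A431 median was 0.93.

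The protein-coding neighbours were looked at for scale: 11 were listed and 8 could be tested. Those after the cluster lie far from it, at 1730.5 to 4695.4 kb, and TMX3, which rose in both lines, is 4653.9 kb away. In A431, 4 rose and 1 fell (median log2 change 0.33), against 22.5% and 21.1% of all genes. In CAL27, 3 rose and 2 fell (median 0.28), against 23.2% and 26.4%. VPS4B, an ATPase of membrane scission 54.5 kb before the cluster, rose in both lines (log2 0.45 ± 0.0507 in A431 and 1.03 ± 0.0521 in CAL27). BCL2, the inhibitor of apoptosis 156.9 kb before it, rose by 1.72 ± 0.181 and 1.26 ± 0.181 on the log2 scale. PHLPP1, a phosphatase of AKT 496.5 kb before it, fell in both lines (log2 -0.49 and -0.75). HMSD, which lies inside the cluster, was not called in A431 (edgeR, adjusted p = 0.188) or in CAL27 (edgeR, adjusted p = 0.942).

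All 3 SERPINB genes of chromosome 6 rose in A431, where 22.5% of all genes rose, and in CAL27 none rose and 1 fell, where 23.2% rose and 26.4% fell. SERPINB1 (ENSG00000021355.13, chromosome 6, 2832332 to 2841863) inhibits neutrophil elastase and cathepsin G. It held 36.4 and 35.9 CPM under DMSO and 83.4 and 91.5 CPM under NEDD8i in A431, and 245 and 248 CPM under DMSO and 212 and 205 CPM under NEDD8i in CAL27. CAL27 was the higher line throughout, and its treated libraries lay under its controls. The log2 change was 1.28 ± 0.0562 in A431, 2.42-fold (edgeR, adjusted p = 7.52e-12), and -0.24 ± 0.0521 in CAL27, 1.18-fold lower (edgeR, adjusted p = 0.00082).

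SERPINB9 (ENSG00000170542.6, chromosome 6, 2887270 to 2903309) is the inhibitor of granzyme B, the killing protease of cytotoxic lymphocytes. It held 1.88 and 2.25 CPM under DMSO and 4.35 and 3.68 CPM under NEDD8i in A431, and 25.4 and 23.1 CPM under DMSO and 25.7 and 19.9 CPM under NEDD8i in CAL27. The A431 groups did not overlap and the CAL27 groups did. The rise in A431 was 1.94-fold (log2 0.96 ± 0.184, edgeR adjusted p = 0.000331), and in CAL27 the log2 change was -0.09 with a 95% interval of -0.38 to 0.21 (edgeR, adjusted p = 0.659). SERPINB6, an intracellular inhibitor that also blocks cathepsin G, rose 1.28-fold in A431 (log2 0.35 ± 0.0551, edgeR adjusted p = 4.47e-05) and was not called in CAL27 (log2 0.05 ± 0.054, edgeR adjusted p = 0.503).

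Of the serpins that act on clotting and fibrinolysis, SERPINE2 (protease nexin 1), which inhibits thrombin and urokinase at cell surfaces, rose in both lines. It held 5.98 and 8.73 CPM under DMSO and 12.7 and 12.9 CPM under NEDD8i in A431, and 11.9 and 12.9 CPM under DMSO and 19.7 and 19.7 CPM under NEDD8i in CAL27. Treated libraries lay above the controls in each line. The rise was 1.75-fold in A431 (edgeR, adjusted p = 0.000349) and 1.58-fold in CAL27 (edgeR, adjusted p = 0.00101).

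SERPINF2 (alpha 2-antiplasmin, ENSG00000167711.14, chromosome 17, 1742836 to 1755265), the plasma inhibitor of plasmin, fell in both lines from low levels. In A431 it had 26 and 26 counts under DMSO and 2 and 0 counts under NEDD8i, a ratio of 24 in CPM with a 95% counting interval of 6.31 to 203.3 (edgeR, adjusted p = 0.000146). In CAL27 it stood at 4.32 and 4.86 CPM under DMSO and 0.260 and 0.418 CPM under NEDD8i. Treated libraries lay under the controls in each line, and in CAL27 the level was 13.4-fold lower (log2 -3.74 ± 0.448, edgeR adjusted p = 2.5e-06). The fitted log2 change in A431 was -4.43, and without NEDD8i replicate 1, which held the 2 treated counts, it was -7.77.

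SERPINA5 (protein C inhibitor, ENSG00000188488.14, chromosome 14, 94561442 to 94593118), which acts on activated protein C and on urokinase, had 35 and 58 counts under DMSO and 0 and 0 counts under NEDD8i in CAL27. It was called lower there (edgeR, adjusted p = 0.000292). Set against a floor of 3 counts over the group, it was 29.4-fold lower, a bound that leaves out counting error. In A431 the DMSO libraries had 11 and 13 counts and the NEDD8i libraries 6 and 4, and the gene was not called (edgeR, adjusted p = 0.399). In CAL27 the fitted value and the bound of SERPINA5 both lay under the median of the 13 serpins outside chromosome 18. The choice between them could not move that median of -0.30. SERPING1 (the C1 inhibitor of complement and kallikrein), SERPINA10 (protein Z-dependent inhibitor) and SERPINI1 (neuroserpin) were tested and not called in either line, with adjusted p in edgeR from 0.0566, for SERPINI1 in A431, to 0.737, for SERPINA10 in A431. SERPINI1 held 1.56 and 1.47 CPM under DMSO and 0.438 and 0.692 CPM under NEDD8i in A431, and it was called lower there without NEDD8i replicate 1 or 2 of CAL27 (log2 -1.41, edgeR adjusted p = 0.0346 and 0.0385). The same held with the filter of 1 CPM, with the A431 libraries alone and with halved counts (edgeR, adjusted p = 0.0218 to 0.0301).

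SERPINA1 (alpha 1-antitrypsin, ENSG00000197249.14, chromosome 14, 94376747 to 94390693), the plasma inhibitor of neutrophil elastase, fell in both lines. It held 1.56 and 1.63 CPM under DMSO and 0.831 and 0.765 CPM under NEDD8i in A431. In CAL27 it held 11.1 and 11.1 CPM under DMSO and 4.42 and 4.44 CPM under NEDD8i. The treated libraries lay under the controls in both lines, and CAL27 was the higher line. The level was 2-fold lower in A431 (log2 -1.0 ± 0.241, edgeR adjusted p = 0.0024) and 2.51-fold lower in CAL27 (log2 -1.33 ± 0.188, edgeR adjusted p = 1.33e-05). Fitted on the A431 libraries alone, the A431 fall was not called (edgeR, adjusted p = 0.0646). Summed leukocyte markers moved the same way, from 6.38 to 6.78 CPM under DMSO to 0.875 to 1.78 CPM under NEDD8i in A431 and from 16.3 to 17.8 to 1.74 to 1.77 CPM in CAL27, with PTPRC and CD68 at 0 counts. Nearly all of the sum was CD14, at means of 6.47 and 1.31 CPM in A431 and 17.0 and 1.65 CPM in CAL27, and its part in the result was not tested. Other marker sums did not all move this way. The endothelial sum went from 19.6 and 21.9 CPM under DMSO to 5.23 and 5.56 CPM under NEDD8i in A431. In CAL27 it went from 5.95 and 6.63 CPM to 10.3 and 10.7 CPM. The squamous keratinocyte sum was higher under NEDD8i in both lines.

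SERPINH1 (HSP47, ENSG00000149257.16, chromosome 11, 75562056 to 75572783), the chaperone that stabilises procollagen in the endoplasmic reticulum, fell in both lines. A431 held 193 and 185 CPM under DMSO and 70.8 and 74.2 CPM under NEDD8i. CAL27 held 383 and 401 CPM under DMSO and 185 and 185 CPM under NEDD8i. The treated libraries lay under the controls in each line, with CAL27 the higher line. The level was 2.61-fold lower in A431 (log2 -1.38 ± 0.0486, edgeR adjusted p = 4.02e-13) and 2.12-fold lower in CAL27 (log2 -1.08 ± 0.047, edgeR adjusted p = 4.05e-12). Summed fibroblast markers moved the same way, from 35.4 to 39 CPM under DMSO to 17.6 to 18.4 CPM under NEDD8i in A431. In CAL27 the sum went from 20.8 to 24.1 to 6.49 to 10.8 CPM. Only 2 of the 5 tested markers were called in each line, LUM and COL1A1 in A431 and COL1A2 and COL1A1 in CAL27. All these calls were lower. The log2 changes of the 5 ran from -5.02 to 0.95 in A431 and from -3.03 to -0.28 in CAL27. Nearly all of the A431 sum was LUM and COL1A1, at means of 23.99 and 12.87 CPM under DMSO. The part of these markers in the result was not tested. SERPINF1, the neurotrophic and antiangiogenic factor PEDF, was not called in A431 (edgeR, adjusted p = 0.799) or CAL27 (edgeR, adjusted p = 0.765), and without DMSO replicate 1 of A431 it was called higher in A431, at a fitted log2 change of 5.73 against a control at 0 counts, which is no bound (edgeR, adjusted p = 0.0244).

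The remaining 12 serpins had too few counts for the test. SERPINB11, SERPINA11, SERPINA12, SERPINA4, SERPINI2 and SERPINA7 had 0 counts in every library. SERPINC1 (antithrombin), SERPINE3, SERPINA6 (the cortisol carrier), SERPINA9, SERPINA3 (alpha 1-antichymotrypsin) and SERPIND1 (heparin cofactor 2) had at most 22 counts in a library. The 22 counts were those of SERPINA3 in 1 CAL27 library under DMSO, and the other DMSO library of that line had 5.

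**Figure D3:**
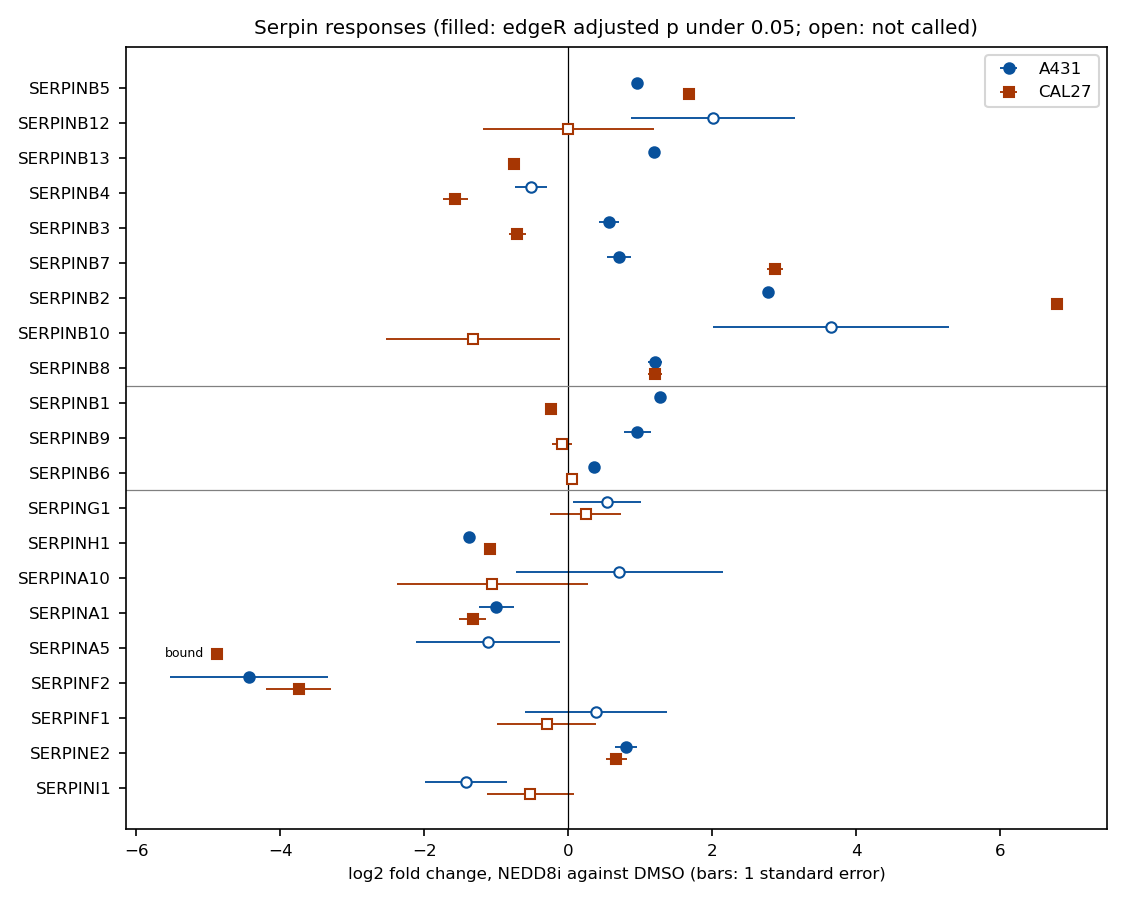
Log2 change under NEDD8i of 21 tested serpins in A431 (circles) and CAL27 (squares), with bars of 1 SE and open marks for genes not called, and SERPINA5 in CAL27 drawn at its bound; lines part the chromosome 18, chromosome 6 and other genes. SERPINB2, SERPINB7, SERPINB5, SERPINB8 and SERPINE2 were called higher in both lines, and SERPINH1, SERPINA1 and SERPINF2 lower in both.

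The response was then compared between the lines by the test of the difference itself, where 34% of all genes tested differed, 14.2% with the higher and 19.8% with the lower log2 change in CAL27. Of the 22 serpins, 12 differed: 5 had the higher log2 change in CAL27 and 7 the lower. Among the called members with counts in every group, SERPINB2 differed most, by 4.01 on the log2 scale with a 95% interval of 3.81 to 4.21 (edgeR, adjusted p = 2.49e-14). SERPINB7 followed at 2.17 (1.75 to 2.59, edgeR adjusted p = 2.17e-07) and SERPINB5 stood at 0.73 (0.59 to 0.87, edgeR adjusted p = 1.69e-07). SERPINH1, which fell in both lines, fell less in CAL27, with a difference of 0.30 (0.16 to 0.44, edgeR adjusted p = 0.00215).

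On the other side stood 7 members with the lower change in CAL27, of which none rose in that line. The difference was -1.95 for SERPINB13 (-2.16 to -1.74, edgeR adjusted p = 1.59e-10), -1.52 for SERPINB1 (-1.68 to -1.36, edgeR adjusted p = 1.37e-10) and -1.28 for SERPINB3 (-1.66 to -0.89, edgeR adjusted p = 2.58e-05). SERPINB9 differed by -1.04 (edgeR, adjusted p = 0.00173) and SERPINB6 by -0.31 (edgeR, adjusted p = 0.0049). SERPINB4 differed by -1.05 (edgeR, adjusted p = 0.00775), but without NEDD8i replicate 2 of A431 the difference was -0.75 and did not pass (edgeR, adjusted p = 0.0961). SERPINA5, with no treated counts in CAL27, differed too (edgeR, adjusted p = 0.00913), and without DMSO replicate 2 of CAL27 it did not (edgeR, adjusted p = 0.0563). For SERPINB8 the difference was -0.00 with a 95% interval of -0.30 to 0.30, and for SERPINE2 it was -0.14 with an interval of -0.59 to 0.31. Without DMSO replicate 1 of A431, SERPINB10 (edgeR, adjusted p = 0.0444) and SERPINF1 (edgeR, adjusted p = 0.0285) also passed, both against a control left at 0 counts.

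Serpin levels also differed between the lines in the DMSO controls. There 18 of the 22 differed between CAL27 and A431, against 58.9% of all genes, 29.9% higher and 29% lower in CAL27. Of the 18, 12 were higher in CAL27 and 6 in A431. SERPINB2 was 13.5-fold (edgeR, adjusted p = 6.45e-17) and SERPINB5 3.85-fold (edgeR, adjusted p = 1.37e-15) higher in A431. CAL27 was higher for SERPINB9 by 11.8-fold (edgeR, adjusted p = 7.32e-12), SERPINB4 by 11.6-fold (edgeR, adjusted p = 4.95e-11), SERPINF2 by 9.57-fold, SERPINA1 by 6.96-fold, SERPINB1 by 6.83-fold (edgeR, adjusted p = 1.15e-16) and SERPINB3 by 5.86-fold (edgeR, adjusted p = 1.98e-11). SERPINB10 had 36 counts in CAL27 against 2 in A431, a ratio of 16.4 with a 95% counting interval of 4.21 to 140.2. Its call was lost when any of 4 single libraries was left out, DMSO replicate 2 or NEDD8i replicate 2 of A431 or either DMSO library of CAL27 (edgeR, adjusted p = 0.0534 to 0.165). The call of SERPINI1, lower in CAL27, was lost without DMSO replicate 1 of A431 or either DMSO library of CAL27 (edgeR, adjusted p = 0.0709 to 0.106). SERPINF1 had 10 and 0 counts in the A431 controls and 64 and 91 in those of CAL27, and the fitted log2 difference of 3.81 became 9.14 without DMSO replicate 1 of A431.

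Per kb of exon, a rough scale for a library that reads 3′ ends, the leading serpins among those named here changed with treatment. Under DMSO the order in A431 was SERPINB5 at 106.4 CPM per kb, SERPINH1 at 38.9 and SERPINB2 at 36.4, and in CAL27 it was SERPINB1 at 99.6, SERPINH1 at 80.6 and SERPINB5 at 27.7. Under NEDD8i SERPINB2 came first in both lines, at 249.5 CPM per kb in A431 and 298.7 in CAL27, followed by SERPINB5 at 205.3 and 88.7.

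**Figure D4:**
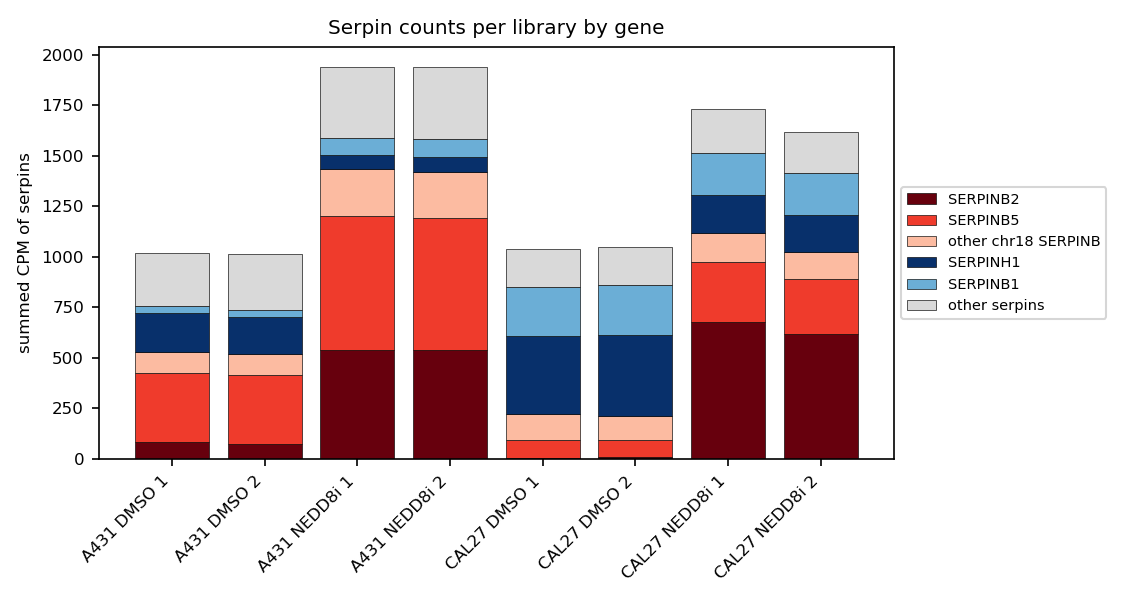
Summed CPM of the serpins in each library, stacked from 0, with the chromosome 18 genes in reds (SERPINB2, SERPINB5 and the rest) and the others in blues and grey. The red part is higher under NEDD8i in both lines, with the gain of SERPINB2 the larger one in CAL27, and the SERPINH1 part is lower.

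Summed over all members, serpin RNA was 1014 ± 1.85 CPM (SD, n = 2) under DMSO and 1940.3 ± 0.11 CPM under NEDD8i in A431, a ratio of 1.91. In CAL27 it was 1043 ± 4.12 CPM and 1673 ± 78.4 CPM, a ratio of 1.60. The gain lay mostly on chromosome 18. Its 10 genes summed to 522 ± 7.5 and 1424 ± 10.2 CPM in A431, and to 218 ± 7.52 and 1070.0 ± 66.8 CPM in CAL27, ratios of 2.73 and 4.92. Their share of serpin CPM went from 51.9% and 51.0% to 73.8% and 73.0% in A431, and from 21.4% and 20.3% to 64.6% and 63.2% in CAL27. SERPINB2 alone held 39.1% and 38.2% of it in treated CAL27, against 0.551% and 0.571% in the controls.

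Without SERPINB2 the chromosome 18 ratio was 1.99 in A431 and 2.0 in CAL27, and without SERPINB2 and SERPINB5 it was 2.21 and 1.14. The 24 serpins elsewhere summed to 492 ± 5.65 and 516 ± 10.4 CPM in A431, a ratio of 1.05, and to 825 ± 11.6 and 603 ± 11.6 CPM in CAL27, a ratio of 0.731. Without SERPINH1 those ratios were 1.46 and 0.965. Outside chromosome 18, 5 of 13 tested serpins rose and 3 fell in A431 (median log2 change 0.39), and 2 rose and 5 fell in CAL27 (median -0.30). The share called was 61.5% in A431 and 53.8% in CAL27, against 43.6% and 49.6% of all genes. With 9 and 13 tested members, these counts describe the cluster beside the others and were not tested against each other.

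The partners of the serpins were described from lists of their target proteases, of other protease inhibitors, of their receptors and of collagen folding. Of 27 tested target proteases, 8 rose and 12 fell in A431 (median log2 change -0.19), and 8 rose and 14 fell in CAL27 (median -0.57). The share called was 74.1% and 81.5%, against 43.6% and 49.6% of all genes. CTSS (cathepsin S, a target of SERPINB3) fell in both lines (log2 -2.20 ± 0.129 and -2.12 ± 0.133), as did HTRA1, a secreted serine protease (log2 -1.88 ± 0.208 and -2.45 ± 0.207). CTSK (cathepsin K) went from 37 counts to 0 in A431, 11.4-fold lower against a floor of 3 counts. TMPRSS11D, an airway trypsin-like protease, fell there too (log2 -1.86 ± 0.605). In CAL27, PLAT, tissue plasminogen activator and a target of SERPINB2, was 2.91-fold lower (log2 -1.54 ± 0.144), at means of 113 and 38.8 CPM. In A431 it was called lower too (log2 -0.65 ± 0.236), from 3.98 ± 1.35 CPM (SD) under DMSO to 2.56 ± 1.09 CPM under NEDD8i. KLK14, a kallikrein of the skin barrier, rose 12.4-fold in CAL27 (log2 3.63 ± 0.67). CTSL (cathepsin L), a target of SERPINB3, and FURIN, a target of SERPINB8, were called higher in both lines. PLAU (urokinase), a target of SERPINB2, was called higher in A431 and lower in CAL27.

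Other protease inhibitors moved in both directions: of 20 tested, 8 rose and 5 fell in A431 (median log2 change -0.02), and 7 rose and 4 fell in CAL27 (median 0.13). The share called was 65% and 55%, against 43.6% and 49.6% of all genes. PI3 (elafin), an elastase inhibitor of stressed epidermis, rose 6.63-fold in A431 and 3.98-fold in CAL27. Its A431 level was low, at means of 0.267 CPM under DMSO and 1.86 CPM under NEDD8i, against 67.0 and 267 CPM in CAL27. TIMP2, an inhibitor of matrix metalloproteases, fell in both lines (log2 -0.99 ± 0.053 and -1.15 ± 0.0568). TIMP4 (log2 1.87 ± 0.274 in A431 and 1.13 ± 0.297 in CAL27) and CSTB, cystatin B (log2 0.94 ± 0.05 and 0.55 ± 0.0504), rose in both lines too. In CAL27, A2ML1, a protease trap of keratinocytes, rose 4.01-fold and SPINK5, an inhibitor of kallikreins, fell (log2 -1.72 ± 0.639).

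Of 12 tested receptors and partners, 8 rose and 1 fell in A431 (median log2 change 0.32), and 5 rose and 4 fell in CAL27 (median -0.01). Over all genes 22.5% rose and 21.1% fell in A431, and 23.2% and 26.4% in CAL27. PLAUR, the urokinase receptor that carries the enzyme inhibited by SERPINB2, rose 11.5-fold in A431 and 8.6-fold in CAL27. ITGB3, the beta 3 integrin that binds vitronectin with PLAUR, went from 0 to 129 counts in A431. Against a floor of 3 counts it was 46.6-fold higher. Of the receptors that clear serpin complexes, VLDLR went from 0 to 19 counts in A431, at least 6.87-fold higher, and rose 2.0-fold in CAL27, and LRP8 rose in A431 (log2 1.69 ± 0.0728) and fell in CAL27 (log2 -0.62 ± 0.0768). LRP1 rose in A431 (log2 0.28 ± 0.0476) and fell in CAL27 (log2 -1.25 ± 0.0575), and SORL1 fell in both lines (log2 -1.59 ± 0.075 and -1.39 ± 0.0779).

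The collagen folding list covers the setting in which SERPINH1 works. Of its 16 members, all tested, 6 rose and 5 fell in A431 (median log2 change 0.03), and 6 rose and 7 fell in CAL27 (median -0.16). The share called was 68.8% and 81.3%, against 43.6% and 49.6% of all genes. The hydroxylases P4HA1 (log2 1.28 ± 0.0518 and 0.70 ± 0.0512) and PLOD2 (log2 1.03 ± 0.0413 and 1.15 ± 0.0412) rose in both lines, and KDELR3, a receptor that returns proteins to the endoplasmic reticulum, fell in both (log2 -1.33 ± 0.176 and -1.83 ± 0.209). TMEM38B, an ion channel of that organelle, rose in both lines (log2 0.92 ± 0.0677 and 0.55 ± 0.0602), and CRTAP, a part of the collagen prolyl 3-hydroxylation complex, rose in A431 (log2 0.26 ± 0.0538) and fell in CAL27 (log2 -0.73 ± 0.0549).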

How the data were processed

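The authors deposited a table of raw read counts for each library. The submitters' processing notes name STAR, without a version, and GRCh38. Per the file headers, reads were counted with featureCounts 2.0.8 over exons of the GENCODE 39 basic annotation, without regard to strand and with each mate of a pair counted. Libraries came from a QuantSeq FWD kit, which reads 3′ ends, per the labels' protocols. Of low counts, 70.2% to 76.7% were even, so counting intervals are too narrow. Reads of overlapping genes on either strand could not be told apart.

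Counts of all 8 libraries were fitted together in edgeR 4.0.16 (R 4.3.3) and tested with its quasi-likelihood F-test, with 1 mean per group, TMM scaling, filterByExpr, and Benjamini-Hochberg adjustment over 18738 genes. Residual degrees of freedom were 4 and prior ones 12.3. Of 61533 identifiers, 61415 matched a symbol, and gene type came from an older GENCODE release. Coordinates are from the count tables. The treatment was tested in each line, then its difference between lines, then CAL27 against A431 under DMSO. The scripts were tested on simulated counts. Values in every library are given for each serpin called with an absolute log2 change of at least 1 in a line or in the difference, and for SERPINB2, SERPINB3, SERPINB4, SERPINB5 and SERPINH1. From each list at most the 4 called genes with the largest change in a line are named. CTSL, FURIN and PLAU are named besides, as targets of serpins given here. Members, lists and this rule were chosen with earlier results of these data known. No set test was run. For 1 tested serpin, which stays in all counts and sums, values are not reported here.

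Alternatives were DESeq2 1.42.0, its size factors, other filters, only the libraries compared, halved counts, a replicate block and leaving out each library. Same-numbered replicates did not deviate together, with correlations from -0.03 to 0.02, so replicate numbers were not treated as pairs.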

Additional observations from a re-analysis of the deposited data

Results flagged for a closer look

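For 11 serpins given here the NEDD8i response differed between CAL27 and A431 by the test of the difference itself (edgeR, adjusted p under 0.05), given here as the CAL27 minus the A431 log2 change. The response was higher in CAL27 for SERPINB2 (4.01), SERPINB7 (2.17), SERPINB5 (0.73) and SERPINH1 (0.30). It was lower in CAL27 for SERPINA5 (-7.29, a fitted value against a group with 0 counts and no bound), SERPINB13 (-1.95), SERPINB1 (-1.52), SERPINB3 (-1.28), SERPINB4 (-1.05), SERPINB9 (-1.04) and SERPINB6 (-0.31). SERPINB13, SERPINB3 and SERPINB1 were called higher in A431 and lower in CAL27.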

How the results depend on the processing

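Of the 14 serpins called in A431, 13 stayed called under all 15 alternatives, SERPINA1 being lost with only the libraries compared. In CAL27 no called serpin lost its call where it was tested, but the filter of 1 CPM left SERPINA5 out of the test. In the difference between lines 10 of 12 stayed called over 14 alternatives (without SERPINA5 and SERPINB4), and between the lines under DMSO 16 of 18 (without SERPINB10 and SERPINI1). No direction reversed among called values. The number called ranged from 14 to 15 in A431, 13 to 15 in CAL27, 11 to 14 for the difference and 16 to 19 between lines. With the replicate number as a block these counts were 14, 14, 12 and 18, as without it. The chromosome 18 median moved: in A431 it was 0.93 among genes with at least 1 CPM, where fewer genes were tested. In CAL27, where it rested on SERPINB12, it was 1.21 with that filter, 0.28 with only the libraries compared, 0.63 with halved counts, -0.10 with the replicate block, and -0.59 to 0.99 when each library was left out.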

Other observations

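SERPINB3 made up a varying share of the counts assigned to SERPINB3 and SERPINB4 together. It was 66.3% and 72.2% under DMSO and 86.2% and 78.7% under NEDD8i in A431, and 53.5% and 51.6% under DMSO and 67.5% and 66.2% under NEDD8i in CAL27. The treated libraries lay above the controls in both lines. SERPINB1 took 23.6% and 23.8% of serpin CPM in CAL27 under DMSO and 12.3% and 12.7% under NEDD8i, and 3.58% and 3.54% to 4.30% and 4.72% in A431.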
